A study of Rattus norvegicus with 71 samples.

Results

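The brains of rat pups whose dams had been immunized against CRMP1+CRMP2 were compared directly with those of pups whose dams had been immunized against STIP1+NSE, a pair of autoantibody patterns that have no antigen in common. The members were the 8 animals labelled CRMP1+CRMP2 and the 8 animals labelled STIP1+NSE, 16 of the 71 animals of the series, and all were among the 43 animals with titles beginning MAR_C3. By the study's account these 2 patterns were only in the second of its 2 experimental batches, so the contrast lay within a single sequencing batch. The study modelled maternal autoantibody-related autism (MARA), in which a mother carries IgG against proteins of the fetal brain, by immunizing female Sprague-Dawley rats with synthetic peptides of these proteins before mating. Every pup was wild type and was collected at postnatal day 2 (PND2), and poly-A RNA was sequenced from a single coronal slice of 150 um that held hippocampus with cortical and subcortical structures.

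Dams of both groups received Freund's adjuvant with their peptides, and dams of the 12 control animals of the same batch received adjuvant and saline. The 8 CRMP1+CRMP2 animals were 5 males and 3 females from 4 litters, and the 8 STIP1+NSE animals were 4 males and 4 females from 4 other litters, a male and a female of each. Littermates shared 1 dam, so each pattern rested on 4 immunized dams, and an effect of a dam and an effect of her pattern cannot be told apart within a litter. Animals are numbered 1 to 8 within a pattern by the order of their records, consecutive odd and even numbers (1 and 2, 3 and 4, and so on) being littermates, and a shared number pairs no animals across patterns. The study also grouped litters into cohorts by date of birth and collection, and which litters shared a cohort is not given in the sources used here, so the part of cohort was not tested.

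The antigens do different work in neurons. CRMP1 and CRMP2 (the latter encoded by Dpysl2) are cytosolic phosphoproteins that bind tubulin and carry semaphorin signals to the growth cone, where they steer axon extension and neuronal migration. STIP1 is a co-chaperone that passes client proteins from HSP70 to HSP90 and, when secreted, binds the prion protein. Neuron-specific enolase (NSE), encoded by Eno2, is the neuronal isoform of a glycolytic enzyme that replaces embryonic enolase as neurons mature. Maternal IgG reaches the fetus across the placenta and the pup through milk, and the antibodies themselves were not measured in these libraries.

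No gene differed between the patterns at FDR < 0.1. Of 12560 genes tested with edgeR's quasi-likelihood test, with sex as a covariate, 0 were higher (0%) and 0 were lower (0%) in CRMP1+CRMP2, and the smallest adjusted p was 0.816. At an unadjusted p under 0.05 there were 313 genes higher (2.49%) and 259 lower (2.06%), 572 in all (4.55%), and DESeq2 on the same counts gave 642 at that level and 1 at FDR < 0.1. The count of 572 was 1208 with the study's kind of covariate, a surrogate variable, in place of sex and 304 with litter as a random effect. It ranged from 230 without animals 3 and 4 of CRMP1+CRMP2 to 1595 without animals 3 and 4 of STIP1+NSE. The median log2 fold change over all genes (CRMP1+CRMP2 over STIP1+NSE, as everywhere below) was 0.01.

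With animals as replicates, the intervals of 8 against 8 animals bounded the differences for most genes. They take littermates as independent, though each pattern rested on 4 dams, so they can be too narrow for an effect of pattern. The 95% confidence interval of the fold change lay within 1.5-fold in either direction for 10227 genes (81.4%) and within 2-fold for 11886 (94.6%). It lay within 1.25-fold for 6602 genes (52.6%), and the interval reached 0.21 to either side of the estimate in the median gene, on the log2 scale. A log2 fold change over 1 in either direction was estimated for 42 genes, of which 36 had a mean under 5 CPM. CPM are counts scaled to a common library total by division by the library's own of 25818198 to 36234952 counts, so 1 CPM stands for 25.8 to 36.2 counts.

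**Figure D1:**
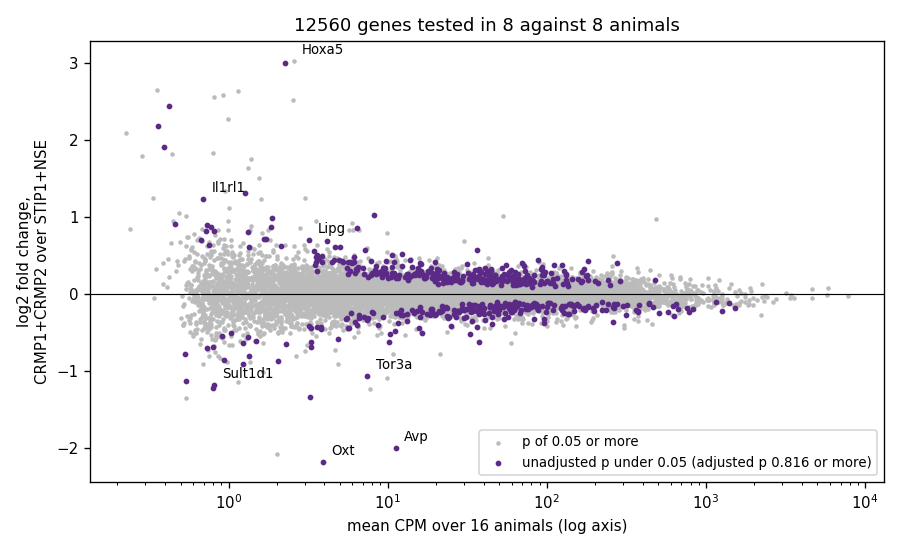
Each point is 1 of 12560 genes, with its mean CPM over the 16 animals on a log axis and its log2 fold change, CRMP1+CRMP2 over STIP1+NSE, on the vertical axis; purple points have an unadjusted p under 0.05. The purple points lie on both sides of 0 at every level, and the widest differences are among genes of a few CPM.

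Transcripts of the 4 antigens did not differ beyond the spread between animals, which is the first check of whether immunity to a protein came with an altered level of its mRNA. Crmp1 (rn7 chr14:73509933-73556177, minus strand) was at 2461, 2959, 2434, 1954, 2178, 2336, 2304 and 2474 CPM in animals 1 to 8 of CRMP1+CRMP2 and at 2710, 2852, 2362, 2149, 2415, 2383, 2448 and 2345 CPM in animals 1 to 8 of STIP1+NSE. Both groups spanned nearly the same range, and the highest value of each was a female of the first litter listed. The log2 fold change of Crmp1 was -0.04 (SE 0.08, 95% interval -0.21 to 0.12, edgeR adjusted p = 0.916).

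Dpysl2 (rn7 chr15:41005551-41072857, minus strand), which encodes CRMP2, ranged from 2236 to 2897 CPM in CRMP1+CRMP2 (2566 ± 258, SD, n = 8) and from 2074 to 3118 CPM in STIP1+NSE (2739 ± 376, SD, n = 8). Its lowest value of all, 2074 CPM, was in a STIP1+NSE animal, and 4 animals of that pattern lay above every CRMP1+CRMP2 animal. The log2 fold change was -0.10 (SE 0.09, 95% interval -0.29 to 0.08, edgeR adjusted p = 0.823). The 12 controls of the batch ranged from 2623 to 3071 CPM.

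Stip1 (rn7 chr1:204209435-204228449, minus strand) was the least variable of the 4. It was at 199.5 ± 15.3 CPM in CRMP1+CRMP2 and at 199 ± 6.95 CPM in STIP1+NSE (SD, n = 8 each), and the log2 fold change was -0.00 with a 95% interval of -0.11 to 0.10 (edgeR adjusted p = 0.998). The sign of so small a value turned with the processing, and neither sign is given weight. Eno2 (rn7 chr4:157572085-157580936, minus strand) ranged from 231 to 355 CPM in CRMP1+CRMP2 and from 268 to 358 CPM in STIP1+NSE. The groups overlapped over most of that range, and the log2 fold change was -0.13 (SE 0.09, 95% interval -0.31 to 0.06, edgeR adjusted p = 0.816).

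With the litter as the unit, the result was alike. Over the 4 litter means of each pattern, the difference in log2 CPM was -0.06 for Crmp1 (two-sided exact permutation p = 0.543), -0.10 for Dpysl2 (exact p = 0.514), -0.01 for Stip1 (exact p = 0.886) and -0.13 for Eno2 (exact p = 0.314). With 70 arrangements of the 8 litters, the smallest p this test can give is 0.0286.

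**Figure D2:**
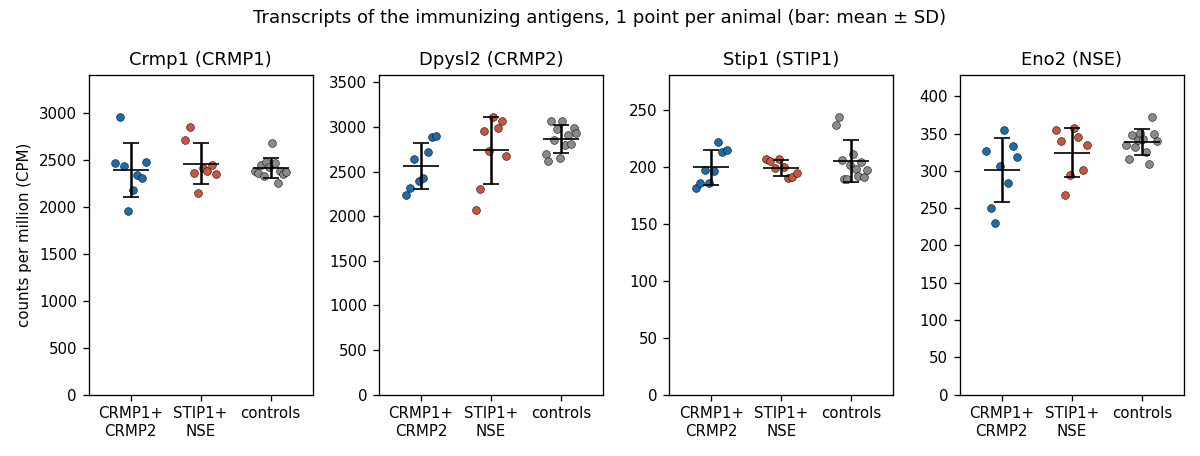
CPM of the 4 antigen transcripts, 1 point per animal, with the mean and SD as a bar, for 8 CRMP1+CRMP2 animals, 8 STIP1+NSE animals and the 12 controls of the batch; each panel starts at 0. The groups overlap in all 4 panels, with means of 2388 and 2458 CPM for Crmp1 and of 301 and 324 CPM for Eno2.

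The antigens that belong to neither pattern were measured alongside. Guanine deaminase (Gda), a purine-degrading enzyme of forebrain neurons, ranged from 15.5 to 75.5 CPM in CRMP1+CRMP2 and from 53.0 to 145 CPM in STIP1+NSE, with a log2 fold change of -0.51 (95% interval -1.03 to 0.01, edgeR p = 0.0549, adjusted p = 0.816). The lowest value was animal 3 of CRMP1+CRMP2 and the highest animal 2 of STIP1+NSE, both of which stood apart in regional markers (below). Lactate dehydrogenase subunits Ldha and Ldhb, which interconvert pyruvate and lactate, had log2 fold changes of -0.14 (SE 0.11) and -0.09 (SE 0.09). All 7 antigen genes had estimates below 0 with 0 at an unadjusted p under 0.05, beside 47.9% of all genes with estimates below 0. Stip1 is counted there at only -0.001. Over 30 fits the sign held in 19 for Stip1, 27 for Crmp1 and 29 for Dpysl2, and in all for Eno2, Gda, Ldha and Ldhb.

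Relatives and partners of the antigens were as close. In the CRMP family, Dpysl3 was at 1541 ± 162 CPM in CRMP1+CRMP2 and 1512 ± 34.3 CPM in STIP1+NSE, Dpysl4 had a log2 fold change of -0.07 (95% interval -0.21 to 0.07) and Dpysl5 one of 0.03 (95% interval -0.10 to 0.16). Among the 27 genes tested of CRMPs, class 3 semaphorins, their neuropilin and plexin receptors and the kinases that phosphorylate CRMPs, 0 passed FDR < 0.1 and 0 had an unadjusted p under 0.05 by edgeR, and the median log2 fold change was 0.06. The smallest p in the list belonged to Kif5b, a kinesin heavy chain that works with CRMP2 in axonal transport, with a log2 fold change of 0.14 (edgeR p = 0.0729). Cdk5, the kinase that primes CRMP2 for further phosphorylation, was at -0.13 (edgeR p = 0.098).

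Among 34 genes tested around STIP1 and the HSP70 and HSP90 chaperones, 0 passed FDR < 0.1 and 2 had an unadjusted p under 0.05 by edgeR, near the 4.55% of all genes. Both were lower in CRMP1+CRMP2. They were Prnp, the prion protein to which STIP1 binds, at -0.15 (95% interval -0.28 to -0.01, edgeR p = 0.0314), and Stub1, a chaperone-bound ubiquitin ligase, at -0.16 (95% interval -0.30 to -0.01, edgeR p = 0.0373). Prnp was at 302 ± 34 CPM in CRMP1+CRMP2 and 332 ± 15.8 CPM in STIP1+NSE (SD, n = 8 each), and the ranges overlapped. The median of the list was -0.03.

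Glycolysis, the pathway of NSE, had 5 of 23 genes with estimates above 0 (52.1% of all genes) and a median of -0.09, and 1 gene with an unadjusted p under 0.05 by edgeR (4.55% of all genes). That gene was the hexokinase Hk2, at 0.44 (95% interval 0.05 to 0.82, edgeR p = 0.0286), the opposite direction to most of the list. The triose phosphate isomerase Tpi1 was at -0.17 (edgeR p = 0.0555). The other enolases were at -0.09 for Eno1 (95% interval -0.23 to 0.05) and 0.16 for Eno3 (95% interval -0.13 to 0.46), a muscle isoform of 6.05 ± 1.24 and 5.31 ± 0.852 CPM in the 2 patterns.

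The genes that the study gave as examples of shared or pattern-specific change were set side by side here. They had been chosen on these libraries, so they are not independent evidence. Of 12 genes, 0 passed FDR < 0.1 and 3 had an unadjusted p under 0.05 by edgeR, all higher in CRMP1+CRMP2, beside 2.49% of all genes on that side. Bach1, a haem-regulated repressor of oxidative stress genes, was at 43.7 to 58.7 CPM in CRMP1+CRMP2 and 36.3 to 48.9 CPM in STIP1+NSE (log2 fold change 0.22, 95% interval 0.06 to 0.39, edgeR p = 0.0115). Its lymphoid relative Bach2 was at 0.37 (95% interval 0.01 to 0.73, edgeR p = 0.0436). Pag1, a membrane adaptor that restrains Src family kinases, was at 0.37 (95% interval 0.07 to 0.66, edgeR p = 0.0177), with 5.80 to 13.0 CPM against 5.94 to 8.26 CPM. The metallothionein Mt1 was at -0.47 (95% interval -1.03 to 0.09), and Grin3b, an NMDA receptor subunit, was at 0.20 (95% interval -0.13 to 0.52).

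Polq, a DNA polymerase of end-joining repair, showed how 1 litter could fill a group's spread. Its CPM in STIP1+NSE were 3.18, 1.83, 7.70, 10.5, 2.35, 2.67, 2.17 and 2.41 in animals 1 to 8, against 2.55 to 4.75 in CRMP1+CRMP2 and 1.59 to 2.94 in the 12 controls. Animals 3 and 4, which were littermates, held the 2 high values. The log2 fold change was -0.07 (95% interval -0.79 to 0.65) with that litter and 0.65 without it. The remaining 6 of these genes were between -0.32 (Calb2, a calcium-binding protein of interneurons) and 0.31 (Mfrp, a choroid plexus gene), none with an unadjusted p under 0.05 in edgeR.

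In CPM, only 2 genes had every CRMP1+CRMP2 animal above every STIP1+NSE animal (0.0159% of genes tested), and 0 had every animal below (0%). These CPM carry none of the normalization (TMM) factors that the fit used. Lipg, an endothelial lipase that releases fatty acids from lipoproteins (rn7 chr18:68514923-68535829, minus strand), was at 4.03, 3.796, 5.11, 3.19, 3.82, 4.77, 3.53 and 3.52 CPM in animals 1 to 8 of CRMP1+CRMP2. In STIP1+NSE it was at 2.11, 1.97, 2.91, 2.82, 2.35, 2.25, 2.17 and 2.89 CPM. The 12 controls ran from 1.63 to 4.01 CPM across both groups' ranges. The log2 fold change was 0.71 (SE 0.15, 95% interval 0.40 to 1.02, edgeR p = 0.000163), which was the smallest p of all genes and reached an adjusted p of 0.816 in edgeR and 0.0933 in DESeq2. Its log2 fold change was 0.72 (SE 0.22) in males and 0.68 (SE 0.25) in females, and 0.69 (SE 0.16) over counts summed per litter. Lipg was picked for its p and its separation in these same animals, so these values are not independent evidence.

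Alkbh5, which removes the N6-methyladenosine mark from RNA (rn7 chr10:45344888-45366331, plus strand), was the other gene without overlap in CPM. Its lowest CRMP1+CRMP2 value, 19.83 CPM (animal 7), stood next to the highest STIP1+NSE value, 19.82 CPM (animal 2), so the separation was narrower than any spread between animals. The TMM factors of these 2 animals were 1.012 and 0.985, so their order turned on the normalized scale and the groups overlapped there. The log2 fold change was 0.20 (SE 0.06, edgeR p = 0.00403, adjusted p = 0.816).

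Below the threshold, the genes with the smallest p had small changes or low levels. On the higher side, after Lipg, they were Il1rl1 at 1.23 (95% interval 0.52 to 1.95), the receptor for interleukin-33, which was at only 0.961 ± 0.424 CPM in CRMP1+CRMP2 and 0.420 ± 0.197 CPM in STIP1+NSE, and Pum3 at 0.26, an RNA-binding nucleolar protein. Il1rl1 was at most 0.815 CPM in STIP1+NSE. It passed the filter (over 1 CPM in 2 or more animals) only through the group where it was high, so its p is no support for a difference. Bdp1, a subunit of the RNA polymerase III initiation factor TFIIIB, was at 0.61 and RT1-S2, a class I histocompatibility gene, at 0.71. RT1-S2 has near-identical relatives among which counting could split reads. Ndc1 (nuclear pore), Ccdc82, Nfatc3 (a calcium-dependent transcription factor), Snx13 (endosomal sorting), Slc25a37 (mitochondrial iron import of red cell precursors) and Lnx2 (a ubiquitin ligase) lay between 0.20 and 0.72, with Slc25a37 at the upper end.

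On the lower side the 12 genes were led by Mrpl52, a mitochondrial ribosomal protein, at -0.30 (95% interval -0.46 to -0.13, edgeR p = 0.00122). It was at 34.1 to 50.1 CPM in CRMP1+CRMP2 and 41.1 to 58.0 CPM in STIP1+NSE. Sult1d1, a sulfotransferase, was at -1.17 (95% interval -1.86 to -0.49) with under 2 CPM in every animal of both patterns, and Tor3a, a torsin ATPase of the endoplasmic reticulum, at -1.06 (95% interval -1.72 to -0.40). Sult1d1 was at most 0.745 CPM in CRMP1+CRMP2. It passed the filter only through STIP1+NSE, where it was high, so its p is no support for a difference. Tor3a was at 1.60 to 10.2 CPM in CRMP1+CRMP2 and at 6.997 to 14.7 CPM in STIP1+NSE, with animals 1, 3 and 5 of the former under 2 CPM. Sstr3, the somatostatin receptor of neuronal cilia, was at -0.59 (95% interval -0.94 to -0.23). Ap1s1 (clathrin adaptor), Lamtor4 (lysosomal nutrient sensing), Arhgap22, Lin7b (synaptic scaffold), Mrpl15 (mitochondrial ribosome), Tsr3 (ribosomal RNA modification), Fam241b and Habp4 lay between -0.44 and -0.22.

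Estimates within some gene groups leaned to one side by small amounts. Of 77 nuclear genes of oxidative phosphorylation, 75 had estimates below 0, with a median of -0.13 (47.9% of all genes had estimates below 0, with a median of 0.01). An unadjusted p under 0.05 was reached by 4 of the 77, near the 4.55% of all genes, and 0 passed FDR < 0.1 in edgeR. The smallest p was that of the complex I subunit Ndufc2 at -0.21 (95% interval -0.38 to -0.03) and of the ATP synthase subunit Atp5pb at -0.14 (95% interval -0.26 to -0.02). Their summed level was 7325 to 10635 CPM in CRMP1+CRMP2 and 8348 to 10715 CPM in STIP1+NSE. The sums overlapped over most of their range, and the genes of such a list vary together from slice to slice, so their number is not a number of independent observations.

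Of 78 cytosolic ribosomal protein genes, 72 had estimates below 0 with a median of -0.06, and 2 had an unadjusted p under 0.05 in edgeR, both lower. They were Rpl17 at -0.36 (95% interval -0.61 to -0.10) and Rpl12 at -0.21 (95% interval -0.36 to -0.05), and ribosomal protein genes share reads with many processed copies. The direction of this list did not hold in both sexes, with 77 of 78 below 0 in males and 9 of 78 in females, at medians of -0.16 and 0.07. For oxidative phosphorylation the counts were 76 of 77 in males and 58 of 77 in females, at medians of -0.20 and -0.04.

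Synaptic vesicle and release genes had 37 of 49 estimates below 0 (47.9% of all genes), a median of -0.10, and 4 genes with an unadjusted p under 0.05 in edgeR (4.55% of all genes). The SNARE Stx1a, with a log2 fold change of -0.20 (95% interval -0.38 to -0.03), was among the 3 that were lower, and the priming factor Unc13b was the one that was higher, at 0.32 (95% interval 0.07 to 0.57). Glutamate and GABA receptor subunits had 20 of 30 below 0, a median of -0.05 and 0 genes at an unadjusted p under 0.05 in edgeR. The NMDA subunit Grin2b was at 0.27 (95% interval -0.03 to 0.57) and the GABA-A subunit Gabrb2 at 0.16 (95% interval -0.05 to 0.36).

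Extracellular matrix and integrin genes leaned the other way, with 53 of 76 estimates above 0, a median of 0.09, and 3 genes with an unadjusted p under 0.05 in edgeR, all higher. Of all genes, 52.1% had estimates above 0 and 4.55% had an unadjusted p under 0.05 in edgeR. The collagen-binding integrins Itga11 and Itga1 were at 0.43 (95% interval 0.11 to 0.76) and 0.68 (95% interval 0.13 to 1.23), at 9.03 ± 1.72 against 6.61 ± 1.76 CPM for Itga11. Cell cycle genes had 24 of 37 above 0 with a median of 0.03, and their smallest p were those of the replication helicase Mcm4 at 0.25 (95% interval 0.04 to 0.46) and the S phase factor E2f1 at 0.20 (95% interval 0.02 to 0.38). Transcription factors of new neurons had 15 of 20 above 0 with a median of 0.11, among them Sox4 at 0.19 (95% interval -0.01 to 0.40) and Myt1l at 0.20 (95% interval -0.02 to 0.43). Their sum overlapped, at 4360 to 6132 CPM in CRMP1+CRMP2 and 3779 to 5372 CPM in STIP1+NSE. In the slices low in thalamus markers (below) it was 5438 and 6132 CPM in animals 2 and 3 of CRMP1+CRMP2. It was 4123 CPM in animal 2 of STIP1+NSE, also low in these markers. The part of slice content in this lean was not tested. Immediate early genes, which neuronal activity switches on, had a median of -0.06, with Nr4a3 at 0.35 (95% interval 0.01 to 0.69) and Npas4 at -0.64 (95% interval -1.38 to 0.10).

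**Figure D3:**
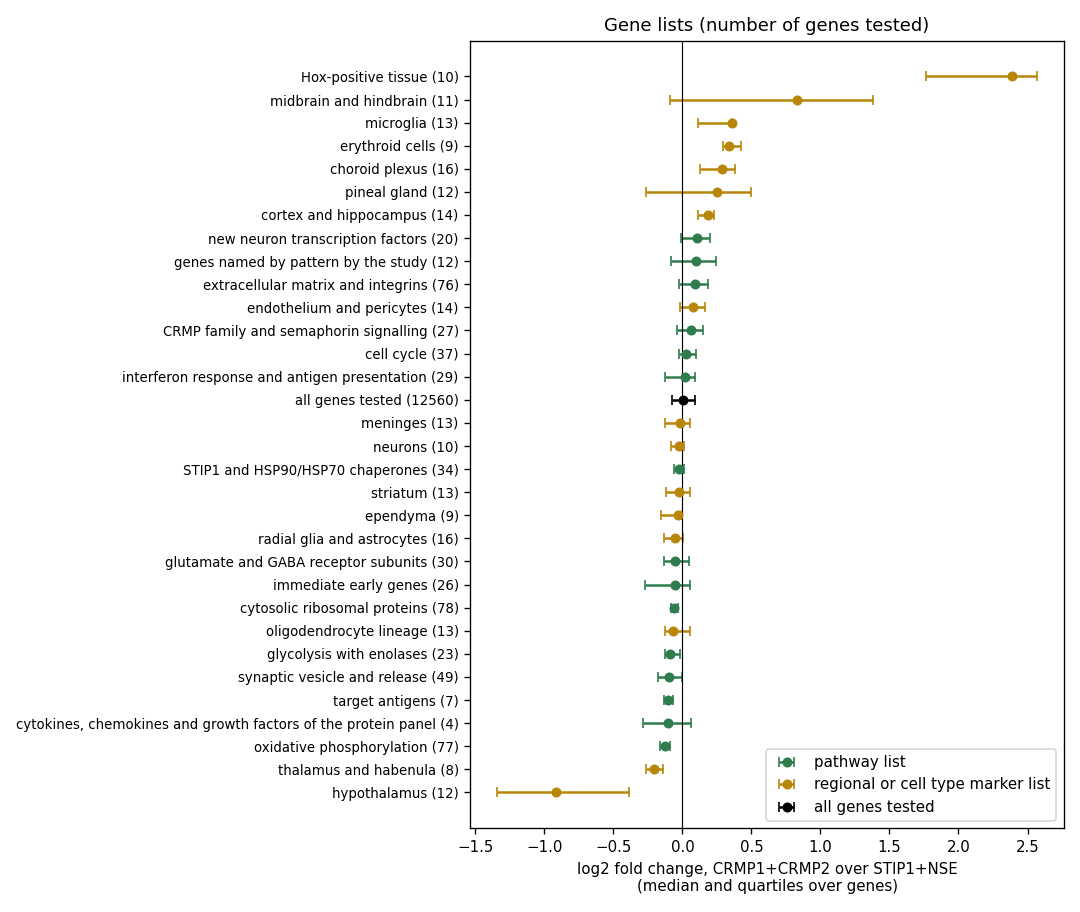
Median log2 fold change, CRMP1+CRMP2 over STIP1+NSE, with quartiles over the genes tested, for each pathway list (green), marker list (gold) and all genes (black); the number of genes tested is in parentheses and lists of fewer than 4 are not drawn. Most pathway lists lie within 0.13 of 0, while marker lists reach from -0.92 (hypothalamus) to 2.39 (Hox genes). The Hox value covers the 10 of 30 genes that passed the filter and rests on 3 slices.

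Immune transcripts were at low levels in both patterns. Of 28 genes that encode the cytokines, chemokines and growth factors of the study's protein panel, 24 fell under the filter, and Il2, Il13, Il17a and Ifng had 0 counts in all 16 libraries, which allows up to 0.00641 CPM over the 16 as a sum (3 counts of their summed total, for counting error only). The interleukin-1 gene Il1b had 16 counts in each pattern, and Tnf had 14 in CRMP1+CRMP2 and 4 in STIP1+NSE, and at this depth no difference in genes of so few counts was detectable. Of the 4 tested, none had an unadjusted p under 0.05 in edgeR. The neuronal chemokine Cx3cl1 was at 133 ± 26.6 CPM in CRMP1+CRMP2 and 161 ± 37.5 CPM in STIP1+NSE (log2 fold change -0.27, 95% interval -0.58 to 0.04), Il18 was at -0.33 (95% interval -0.99 to 0.33), Vegfa at 0.06 (95% interval -0.17 to 0.30) and Egf at 0.07 (95% interval -0.25 to 0.39).

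Interferon response and antigen presentation genes had a median of 0.02 over 29 tested, with 1 at an unadjusted p under 0.05 in edgeR (4.55% of all genes). It was Stat2, the signal transducer of type I interferon, at 0.20 (95% interval 0.05 to 0.36, edgeR p = 0.0121), and the receptor subunit Ifngr2 was at -0.13 (95% interval -0.27 to 0.01).

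The slices differed in which tissue they held, within both patterns. Thalamus and habenula markers (8 genes with counts, led by Tcf7l2, a factor of thalamic neurons) summed to 62.8 and 148 CPM in animals 2 and 3 of CRMP1+CRMP2 and to 57.6 CPM in animal 2 of STIP1+NSE, against 299 to 786 CPM in the other 13 animals. In a bulk slice, fewer cells of a type and less RNA per cell cannot be told apart. Cortex and hippocampus markers, which the labelled region leads one to look for, were high in every animal, at 1683 to 3451 CPM in CRMP1+CRMP2 and 1865 to 2698 CPM in STIP1+NSE. Of these markers 13 of 14 had estimates above 0 (52.1% of all genes), with a median of 0.19 that was -0.00 without the 3 slices low in thalamus markers. Among them the transcription factor gene Bhlhe22 was at 296 ± 54.8 and 271 ± 47.5 CPM. Pan-neuronal markers were even, at 11127 to 12438 and 11497 to 12067 CPM, led by the tubulin Tubb3 and the microtubule regulator Stmn2.

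Hypothalamic markers stood lowest in CRMP1+CRMP2 of all marker lists, with 12 of 12 estimates below 0 (47.9% of all genes) and a median of -0.92. The median was -0.48 (10 of 12 below 0) without the 3 slices low in thalamus markers, -0.55 without animals 7 and 8 of CRMP1+CRMP2 and -1.62 without the 3 slices with Hox counts. Their sum was 84.0, 18.9, 16.1, 44.1, 67.7, 35.1, 37.7 and 26.4 CPM in animals 1 to 8 of CRMP1+CRMP2 and 80.9, 108, 21.8, 101, 89.9, 75.02, 59.3 and 90.7 CPM in animals 1 to 8 of STIP1+NSE. Of the CRMP1+CRMP2 animals, 6 lay below 7 of the 8 STIP1+NSE animals, the exception being animal 3 of STIP1+NSE, and the 12 controls spanned 11.7 to 109 CPM across both. In the 3 and 4 females the groups did not overlap (18.9 to 35.1 against 75.02 to 108 CPM), and in the 5 and 4 males they did. The males had 6 of 12 estimates below 0 and a median of -0.06, against -2.33 in females. Groups of so few animals can fall apart by order alone, and the females included animal 2 of each pattern, low in thalamus markers. A difference between the sexes in this sum was not tested.

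The neuropeptide genes carried most of it. The vasopressin gene Avp was at 18.7, 5.90, 0.305, 1.31, 3.10, 2.35, 2.61 and 1.46 CPM in CRMP1+CRMP2 and at 22.6, 32.04, 0.381, 25.3, 26.7, 9.30, 8.36 and 19.3 CPM in STIP1+NSE. All but 1 animal of CRMP1+CRMP2 lay below all but 1 animal of STIP1+NSE. The log2 fold change was -2.0 (95% interval -3.53 to -0.46, edgeR p = 0.0138, adjusted p = 0.816). The oxytocin gene Oxt was at -2.18 (95% interval -4.28 to -0.07) and the thyrotropin-releasing hormone gene Trh at -1.34 (95% interval -2.48 to -0.20), whereas the hypothalamic patterning factor Nkx2-1 was at 10.5 ± 4.59 CPM in CRMP1+CRMP2 and 10.8 ± 3.93 CPM in STIP1+NSE. Thalamus markers had a median of -0.21 with 7 of 8 estimates below 0, and the part of slice position in the hypothalamic values was not tested beyond the fits that leave slices out.

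**Figure D4:**
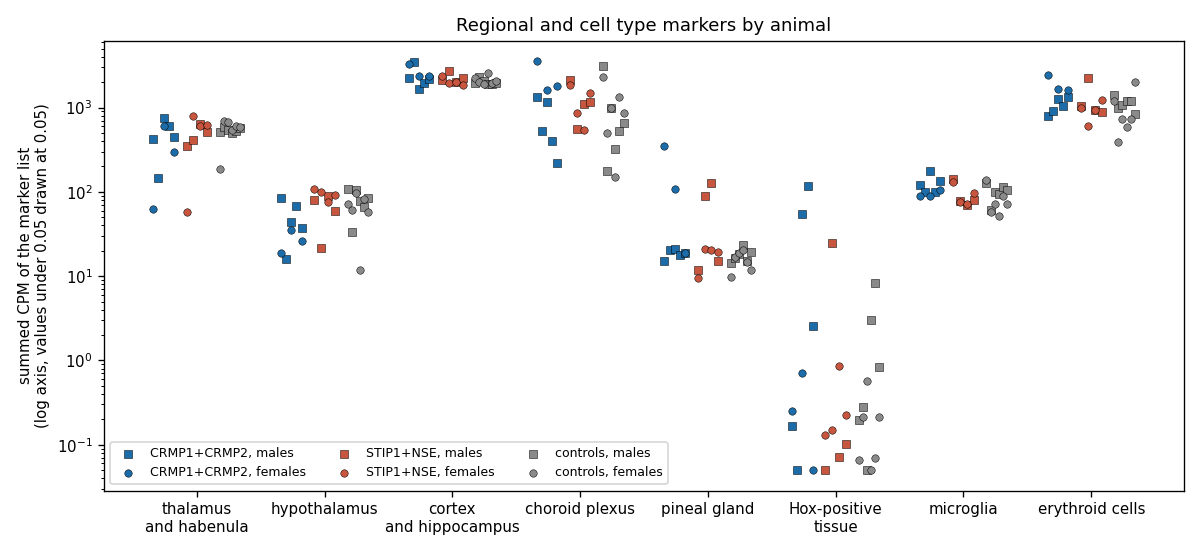
Summed CPM of 8 marker lists by animal on a log axis, with squares for males and circles for females, in CRMP1+CRMP2 (blue), STIP1+NSE (red) and the 12 controls of the batch (grey). Thalamus markers fall to 62.8 and 57.6 CPM in 1 female of each pattern, pineal markers reach 348 CPM in 1 CRMP1+CRMP2 female, and Hox genes reach 116 CPM in 1 CRMP1+CRMP2 male.

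Other structures showed in single slices. Pineal markers summed to 348 and 108 CPM in animals 2 and 6 of CRMP1+CRMP2 and to 88.6 and 129 CPM in animals 3 and 5 of STIP1+NSE, against 9.47 to 21.1 CPM in the other 12 and 9.79 to 23.2 CPM in the controls. Tph1, the serotonin-making hydroxylase of the pineal, was at 188.8 and 53.96 CPM in the former pair, at 30.69 and 59.80 CPM in the latter, and at 1.67 CPM or less in all others. Both pineal-bearing CRMP1+CRMP2 slices were from females and both STIP1+NSE slices were from males. Choroid plexus markers, led by the transthyretin gene Ttr, ran from 221 to 3566 CPM in CRMP1+CRMP2 and 548 to 2141 CPM in STIP1+NSE. Of these markers 14 of 16 had estimates above 0 (52.1% of all genes), with a median of 0.28 that was -0.27 without the 4 slices with pineal markers, -0.03 without animals 1 and 2 of CRMP1+CRMP2, -0.22 in males and 0.94 in females.

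Hox genes, which are silent in forebrain and mark hindbrain, spinal cord or non-neural tissue, summed to 55.2 and 116 CPM in animals 4 and 5 of CRMP1+CRMP2 and to 24.5 CPM in animal 3 of STIP1+NSE, and to at most 2.58 CPM in the other 13. The median log2 fold change of 2.39 over 10 Hox genes tested rested on those 3 slices, since Hoxa5 and Hoxb5 each had a median of 0 CPM in both patterns. No Hox gene could have passed the filter without at least 1 of those slices, so the value is no measure of a pattern difference. Midbrain and hindbrain markers, led by Tfap2b and the serotonin transporter gene Slc6a4, summed to 127 and 188 CPM in animals 3 and 7 of CRMP1+CRMP2 and to at most 68.3 CPM in the others.

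Aanat and Crx show how tightly the pineal genes kept to those 4 slices, and their upstream sequence is printed for the homeodomain motif they share. Aanat, the rhythm-setting enzyme of melatonin synthesis, was at 18.95, 2.42, 4.02 and 9.42 CPM in the 4 slices in the order given above, and Crx, the homeodomain factor of pinealocytes and photoreceptors, at 12.86, 4.42, 3.95 and 4.6 CPM, with Aanat at most 0.339 and Crx at most 0.267 CPM in the other 12. CRX and OTX proteins recognise TAATCC. Read on the opposite strand, that motif is GGATTA. The 250 bases before the gene start, from RefSeq promoters of build GRCr8, are at chr10:102326073-102326322 (plus strand) for Aanat and chr1:85681853-85682102 (minus strand) for Crx and are written 5′ to 3′ with the motif in capitals.
Aanat: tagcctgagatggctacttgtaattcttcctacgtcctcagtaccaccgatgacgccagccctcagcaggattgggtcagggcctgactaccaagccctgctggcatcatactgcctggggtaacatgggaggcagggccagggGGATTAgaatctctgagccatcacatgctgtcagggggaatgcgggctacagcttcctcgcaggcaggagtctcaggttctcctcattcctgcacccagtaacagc
Crx: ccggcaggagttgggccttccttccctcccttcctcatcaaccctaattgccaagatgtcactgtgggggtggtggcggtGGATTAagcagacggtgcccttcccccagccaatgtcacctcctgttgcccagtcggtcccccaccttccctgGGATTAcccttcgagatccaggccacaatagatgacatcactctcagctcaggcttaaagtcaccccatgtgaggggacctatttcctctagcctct
Aanat holds the motif once and Crx has 2 copies. Of the 15 pineal list genes, 13 had a promoter in the table and 5 of these held the motif on either strand, beside 6.34% of the 33469 promoters searched in the same window. A match is a string of letters and not a shown binding site.

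Marker sums of microglia and of red cells overlapped between the patterns. Microglial markers had 11 of 13 estimates above 0 (52.1% of all genes) and a median of 0.36, with 0 at an unadjusted p under 0.05 in edgeR, and summed to 88.3 to 175 CPM in CRMP1+CRMP2 and 70.5 to 143 CPM in STIP1+NSE. Among them the receptor gene Csf1r was at 25.5 ± 9.72 and 18.6 ± 8.07 CPM. The microglial median was 0.54 in males and -0.06 in females. Red cell markers had 9 of 9 estimates above 0 (52.1% of all genes), a median of 0.34 and 1 gene with an unadjusted p under 0.05 in edgeR (Slc25a37, named above), beside 4.55% of all genes. The globin genes Hba-a1 and Hba-a2, near-identical copies, were at 377 to 1144 and 237 to 692 CPM in CRMP1+CRMP2 and at 288 to 1157 and 192 to 731 CPM in STIP1+NSE, and the median was -0.07 in males and 0.99 in females.

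Radial glia and astrocyte markers (median -0.05, led by Fabp7 and Slc1a3), oligodendrocyte lineage markers (-0.07, led by Pdgfra and Olig1), ependymal markers (-0.04, led by Ccdc39 and Foxj1), meningeal markers (-0.02, led by Ptgds and by Nnat, which neurons also express), striatal markers (-0.03, among them Foxp1) and vessel markers (0.08, led by Cldn5 and Kdr) had medians within 0.1 of 0. Of the pituitary markers only Lhb was tested, at 1.82 ± 0.278 and 1.96 ± 0.553 CPM.

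CRMP1+CRMP2 animals spread more widely among themselves. The SD of log2 CPM was larger in CRMP1+CRMP2 for 8025 genes (63.9%), with medians of 0.21 and 0.18. Among the 6 and 7 animals with at least 200 CPM of thalamus markers, it was larger for 51.9% of genes, with medians of 0.18 and 0.17. Leaving out slices that stand apart lowers an SD by construction, and 2 of the 3 left out were of CRMP1+CRMP2.

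Pairs of animals from different patterns were about as far apart as pairs from different litters of 1 pattern. The median over genes of the absolute difference in log2 CPM was 0.196 for the 64 pairs across patterns (median over pairs, range 0.131 to 0.365), 0.205 for the 48 pairs of one pattern and different litters (0.216 in CRMP1+CRMP2 and 0.190 in STIP1+NSE), and 0.158 for the 8 littermate pairs. In CRMP1+CRMP2 littermates lay 0.119 to 0.254 apart and in STIP1+NSE 0.136 to 0.169. These pairs share animals, and the values are a description. The first 2 principal components held 24.1% and 17.7% of the variance, and animal 2 of CRMP1+CRMP2, with the most pineal and choroid plexus transcripts, lay farthest out on the first.

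**Figure D5:**
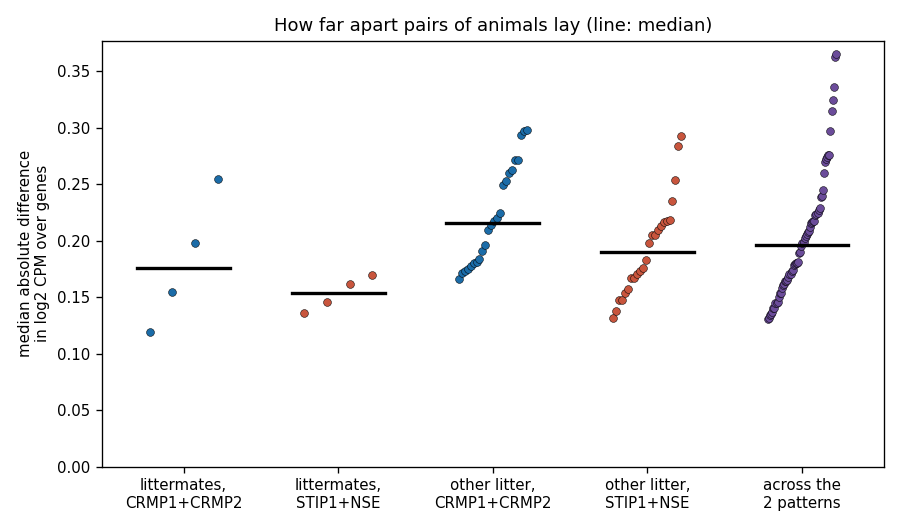
Median absolute difference in log2 CPM over genes for each pair of the 16 animals, grouped as littermates, animals of 1 pattern from different litters, and animals of different patterns, with the median of each group as a line. Across-pattern pairs (median 0.196) cover the range of the different-litter pairs of CRMP1+CRMP2 (0.216) and STIP1+NSE (0.190).

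Whether the pattern difference depended on sex was tested as an interaction. At FDR < 0.1 edgeR called 0 of 12560 genes (0%), with 783 (6.23%) at an unadjusted p under 0.05 and a smallest adjusted p of 0.208, and DESeq2 called 40, of which 6 were in the pineal list. The smallest p values in edgeR went to genes of photoreceptors and pinealocytes, among them Tulp1, Tph1 and Aanat. These are the genes that were high in 2 female slices of CRMP1+CRMP2 and in 2 male slices of STIP1+NSE, as given above. Aanat exceeded 1 CPM in those slices only and passed the filter through them alone, so its p is no measure of an effect of sex. With genes kept at 1 CPM or more in at least 8 animals, the smallest adjusted p in edgeR was 0.762. Recorded sex matched the Y-linked gene Eif2s3y in all 16, at 70.3 to 88.7 CPM in the 9 males and at most 0.378 CPM in the 7 females.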

How the data were processed

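The authors mapped paired-end poly-A reads with STAR 2.5.4b (build rn7 of the rat) and assigned them to genes with featureCounts. The deposited table holds whole-number counts per gene for 17494 genes, with no normalization, and 0 columns of sample values were left without a sample. It also gives exon lengths, which the authors' counting tool wrote (unit other), and these were not used. Group, sex and dam came from the labels. Totals were 25818198 to 36234952 counts in the 16 animals. Among counts of 1 to 9, 74.3% were even, so low counts mostly stepped by 2, and halved counts were tried as an alternative.

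The quasi-likelihood test of edgeR 4.0.16 (R 4.3.3), with TMM factors, a dispersion trend and robust moderation, was run on the 8 and 8 animals with pattern and sex as terms. Genes exceeding 1 CPM in 2 or more animals were kept, with Benjamini-Hochberg adjustment and FDR < 0.1. Sex was used as the covariate in place of the study's surrogate variable, which was tried as an alternative. Log2 CPM used a prior count of 2. The interaction of sex and pattern was fitted the same way. Antigen genes were also tested over litter means with a two-sided exact permutation test (scipy 1.17.1). DESeq2 1.42.0, limma 3.58.1 and sva 3.50.0 served for alternatives, and each fitting script was tested on simulated data. Replicates are animals, and littermates share a dam, so p-values over animals measure the spread between these animals.

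Genes named are the antigens, the genes the study gave as examples, the 12 genes of smallest p in each direction, the 2 of smallest p in each pathway list, the 2 of highest mean CPM in each marker list, and Eif2s3y. Some genes that this rule named are not reported here. Dpysl3 to Dpysl5, Eno1, Eno3, Vegfa, Egf, Avp, Oxt, Trh, Aanat, Crx and Tulp1 were added after their values were seen. The comparison, the lists and the rule were chosen with earlier results of these data known. Control animals of the batch are given as levels only and entered no test. Smallest chi-square per gene between any 2 of the 16 libraries was 13.5, so no library was a copy of another. Promoter sequences came from RefSeq, build GRCr8, whose coordinates differ from those of rn7.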

Additional observations from a re-analysis of the deposited data

Results flagged for a closer look

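In groups of 8 animals, 230 sets of values were examined for 1 animal whose gap to its neighbour, as a share of the group's range on the log2 scale, passed Dixon's 95% critical value of 0.526, and 18 passed it. Chance flags about 1 set in 20, and the sets share animals. No cause of these values was tested.

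Animal 3 of STIP1+NSE, a male with pineal and Hox transcripts in its slice, stood apart in 8 of them. It was the highest of its pattern for Itga11 (10.6 CPM), Hoxa5 (3.19 CPM), Hoxb5 (4.51 CPM), Hba-a2 (731 CPM) and the summed Hox genes (24.5 CPM). It was the lowest for Avp (0.381 CPM), Nkx2-1 (4.44 CPM) and the summed hypothalamus markers (21.8 CPM).

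Animal 2 of STIP1+NSE stood apart in 5. It was the highest for Gda (145 CPM) and the lowest for Nr4a3 (38.7 CPM), Tcf7l2 (12.9 CPM), Slc6a4 (0.885 CPM) and the summed thalamus and habenula markers (57.6 CPM).

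In CRMP1+CRMP2 the flags fell on 4 animals. Animal 2 was the lowest for Tcf7l2 (15.1 CPM) and Nkx2-1 (2.72 CPM), animal 3 the lowest for Gda (15.5 CPM), animal 1 the lowest for Ccdc82 (14.3 CPM), and animal 8 the highest for the summed striatum markers (419.7 CPM).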

How the results depend on the processing

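The count of 0 genes at FDR < 0.1 held in edgeR and limma under every planned and added alternative run and at FDR < 0.05, and DESeq2 gave 1 gene (Lipg, adjusted p = 0.0933). Leaving out each of the 8 litters gave 0 to 0 genes. At an unadjusted p under 0.05 the 572 genes became 1208 with the surrogate variable in place of sex, 890 with both, 335 with counts summed per litter and 304 with litter as a random effect (consensus correlation of littermates 0.22). They became 318 without the 3 slices low in thalamus markers, 181 without the 4 with pineal markers and 976 without the 3 with Hox counts, all chosen after seeing the data. Leaving out a litter gave 230 (animals 3 and 4 of CRMP1+CRMP2) to 1595 (animals 3 and 4 of STIP1+NSE), with 1516 without animals 7 and 8 of CRMP1+CRMP2 and 249 without animals 5 and 6 of STIP1+NSE. Genes with a sex interaction at FDR < 0.1 numbered 40 in DESeq2 and 0 to 9 without a litter, the 9 without animals 7 and 8 of CRMP1+CRMP2. The main interaction fit takes littermates as independent. With litter as a random effect in limma, 0 genes passed, 1323 had an unadjusted p under 0.05 and the smallest adjusted p was 0.144. Without normalization factors 67.1% of genes at an unadjusted p under 0.05 were higher in CRMP1+CRMP2, against 54.7% with TMM and 38.2% in females alone.

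Antigen estimates (log2 fold) stayed uncalled throughout, with these signs turned. Crmp1 ran from -0.12 to 0.022 without a litter and was 0.073 in females and 0.0055 without the Hox slices. Dpysl2 was 0.0098 without the pineal slices (-0.20 to -0.04 without a litter), and Eno2 kept its sign (-0.20 to -0.07 without a litter). Stip1 ran from -0.032 to 0.036 without a litter and was 0.0073 with no normalization factors, 0.0049 with no filter, 0.041 in females, 0.0047 with the choroid plexus score, and 0.016, 0.0087 and 0.015 without the thalamus-low, pineal and Hox slices. Polq ran from -0.27 to 0.65 without a litter and was 0.0034 with the surrogate variable, 0.021 with it and sex, 0.19 with litter random, 0.024 in males, 0.057 with the choroid plexus and 0.017 with the thalamus score, and 0.22 and 0.15 without the pineal and Hox slices. Mfrp ran from -0.040 to 0.71 without a litter and was -0.25 in males, -0.0047 with the choroid plexus score and -0.20 without the pineal slices. In males Vsnl1 was 0.015 and Dpysl3 -0.010, and in females Gabrb2 was -0.0030 and Rpl17 0.0031. Without the thalamus-low slices Grin3b was -0.0040, Kiaa0408L -0.025, Vsnl1 0.033, Dpysl3 -0.036, Dpysl5 -0.056 and Eno3 -0.0094. Without the pineal slices Il18 was 0.12, Dpysl3 -0.053 and Dpysl5 -0.042. Without a litter Kiaa0408L ran from -0.0025 to 0.13, Dpysl3 from -0.014 to 0.086 and Dpysl5 from -0.020 to 0.077. The causes were not tested. Hypothalamic markers had medians of -2.33 (females) to -0.06 (males), and without the thalamus-low slices the median was -0.48 for hypothalamic and -0.00 for cortex and hippocampus markers. No paired analysis was possible because replicate numbers follow only the order of the records and pair no animals across patterns, and the sources used here do not say which litters shared a collection cohort. Depth limits genes under about 1 CPM.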
